A study of Mus musculus with 6 samples.

Results

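Hippocampal RNA was searched for the genes of hemoglobin and heme, 9 genes that were named by symbol and were all found among the 16060 rows of the expression table. They fall into 5 red-cell genes and 4 enzymes that make heme in every tissue. The red-cell genes are the adult α-globin genes Hba-a1 and Hba-a2, the adult β-globin genes Hbb-bs and Hbb-bt, and Alas2. The enzymes are Alas1, Alad, Urod and Fech. The libraries came from adult male C57BL/6 mice, 3 of the control group, which received saline intraperitoneally, and 3 of the methamphetamine (MA) group. The MA dose was raised week by week, from 5 mg/kg in week 1 through 10 mg/kg in week 2 to 15 mg/kg in week 3. Behavioral tests followed on day 22, after which the mice were killed and the hippocampus was taken. Whether each library came from 1 mouse or from a pool is not stated. The methods describe perfusion for the brains used in immunofluorescence and name none for the tissue used for RNA. The red-cell genes were selected on their difference between MA and control, and the enzymes for comparison with that difference already known, so the values of all 9 are given as a description and without p-values. All 9 passed the filter on low values, which kept 13321 rows.

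Hemoglobin is built from α- and β-globin chains, each of which holds a heme group that binds oxygen. Heme is made in all cells along a path that starts in the mitochondrion with 5-aminolevulinate synthase, runs through the cytosol, where Alad joins aminolevulinate into porphobilinogen and Urod decarboxylates uroporphyrinogen, and ends back in the mitochondrion, where Fech inserts iron into protoporphyrin. The starting step has a form for all tissues, Alas1, which is held down by heme itself, and a form of erythroid cells, Alas2, whose mRNA carries an iron-responsive element. Mature red cells of the mouse have no nucleus. Reticulocytes, the youngest red cells of the blood, also lack a nucleus but still carry globin and Alas2 mRNA. Globin transcripts at low level have also been described in some neurons and glia. In a piece of brain tissue the blood left in the vessels is therefore a further source of such transcripts beside the tissue, and in bulk RNA fewer cells of a type and less RNA per cell cannot be told apart.

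The windows upstream of the RefSeq starts of the red-cell genes are shown for the motifs they have in common. Each window is the 250 bases before the RefSeq start (build GRCm38.p6), written 5′ to 3′ on the strand of the gene. The gene spans given below are from GENCODE. For each red-cell gene that span begins inside the window, so part of the window lies within it. Capitals mark the motifs GATAA (the core that GATA factors bind), CACCC (the core bound by Klf factors), CCAAT and TATAA, each searched on both strands. Both α-globin genes have the same sequence here, with 0 differences over 247 aligned bases, so that of Hba-a1 stands for both. The window of Urod is shown as an example of an enzyme.
Hba-a1, chr11:32283422-32283671, plus strand: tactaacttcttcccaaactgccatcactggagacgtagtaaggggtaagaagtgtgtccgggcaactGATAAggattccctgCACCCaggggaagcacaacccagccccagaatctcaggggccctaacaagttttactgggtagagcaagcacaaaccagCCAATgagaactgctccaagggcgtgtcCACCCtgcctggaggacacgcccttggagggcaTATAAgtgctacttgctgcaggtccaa
Hbb-bs, chr7:103827929-103828178, minus strand: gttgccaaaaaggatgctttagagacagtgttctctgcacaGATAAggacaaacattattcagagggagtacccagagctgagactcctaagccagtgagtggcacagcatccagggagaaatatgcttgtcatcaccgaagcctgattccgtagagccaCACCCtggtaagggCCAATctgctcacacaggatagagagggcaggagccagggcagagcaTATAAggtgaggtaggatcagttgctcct
Hbb-bt, chr7:103813924-103814173, minus strand: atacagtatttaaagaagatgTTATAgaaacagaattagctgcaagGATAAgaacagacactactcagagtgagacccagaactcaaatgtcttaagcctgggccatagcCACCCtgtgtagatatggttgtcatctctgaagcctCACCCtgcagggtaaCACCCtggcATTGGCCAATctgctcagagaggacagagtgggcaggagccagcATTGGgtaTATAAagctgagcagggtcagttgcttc
Alas2, chrX:150547167-150547416, plus strand: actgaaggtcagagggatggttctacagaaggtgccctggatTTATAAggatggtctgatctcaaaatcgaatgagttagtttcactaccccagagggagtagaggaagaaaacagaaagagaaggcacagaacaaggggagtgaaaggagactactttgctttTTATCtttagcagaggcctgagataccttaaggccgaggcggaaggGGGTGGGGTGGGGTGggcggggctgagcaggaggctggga
Urod, chr4:116994414-116994663, minus strand: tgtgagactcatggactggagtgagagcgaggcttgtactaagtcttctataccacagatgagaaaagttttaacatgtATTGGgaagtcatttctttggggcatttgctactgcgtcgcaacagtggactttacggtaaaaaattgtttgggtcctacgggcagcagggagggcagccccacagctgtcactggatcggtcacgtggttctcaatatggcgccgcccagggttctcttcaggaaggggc

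The windows of all 4 globin genes held all 4 motifs, a combination found in 0.965% of the 32536 windows of this length in the RefSeq table. In Hba-a1, counted back from the start, TATAA lay at bases -27 to -23, a CACCC at -60 to -56, CCAAT at -88 to -84 and GATAA at -182 to -178. In Hbb-bs the same motifs lay at -29 to -25, -90 to -86, -76 to -72 and -209 to -205. Hbb-bt had GATAA at -204 to -200, 3 matches of CACCC and 3 of CCAAT. Alas2 had GATAA on the opposite strand at -86 to -82, 3 matches of CACCC between -40 and -26 and an overlapping pair of TATAA matches at -208 to -203, and no CCAAT. The 5 windows of Alas1, Alad and Urod, some of which overlap within a gene, held 0 matches of GATAA and 0 of TATAA, motifs that 22.5% and 22.7% of all windows hold. CACCC was in 3 of these 5 and CCAAT in 3 of 5, against 52.1% and 33.8% of all windows. With 3 enzyme genes, and none of these windows for Fech, such counts do not set the enzymes apart from other genes. A match describes these letters and says nothing about binding.

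The values behind all that follows are deposited log2 values named as RPKM, a level scaled to gene length, so levels can be set side by side between genes. The table gives no read totals, and the depth of each library is unknown. The 6 libraries shared 1 highest value of 12.3, and the medians lay between 2.76 and 2.77, so the libraries had been scaled to each other. Exact values also recurred between libraries for different genes, such as 10.768782 for Ttr in MA replicate 1 and Nrgn in control replicate 2. Within its group, each control library had a mean Pearson correlation across genes of 0.991 to 0.993 with the others, and the MA libraries of 0.978 to 0.985, which describes the libraries only, as genes are not independent replicates. MA replicate 3 was the lowest. The lowest value of MA replicate 3 was 0.000206 and not 0, and Epb42, Tspo2 and Car1 had that value there. It therefore listed 0 genes at exactly 0, against 259 to 437 in the other libraries. That count says nothing about how many genes were detected in it. For several genes whose difference MA replicate 3 moved, the difference without it is given as well.

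The 4 globin genes were about 2.1-fold higher in the MA libraries. Their mean log2 level was 8.54, 8.88 and 8.81 in control replicates 1, 2 and 3, and 10.03, 9.60 and 9.82 in MA replicates 1, 2 and 3. The difference of the group means was 1.07, or 2.10-fold. Every MA library lay above every control library, and MA replicate 1 was the highest.

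Hba-a1 (ENSMUSG00000069919, chr11:32283511-32284465 on the plus strand of GRCm38) encodes an adult α chain. Its log2 level was 8.48, 8.87 and 8.76 in the control libraries and 9.98, 9.66 and 9.84 in the MA libraries. The groups did not overlap, and the lowest MA library lay 0.79 above the highest control library. The means were 8.70 ± 0.20 and 9.83 ± 0.16 (SD, n = 3), with a difference of 1.13 (limma SE 0.12), or 2.18-fold.

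Hba-a2 (ENSMUSG00000069917, chr11:32296489-32297298, plus strand) is the neighbouring copy. It was listed at 8.99, 9.34 and 9.27 in the control libraries and at 10.47, 10.10 and 10.22 in the MA libraries. The order of the libraries was that of Hba-a1 in both groups. The difference of the means (9.20 ± 0.18 and 10.26 ± 0.19, SD, n = 3) was 1.06 (limma SE 0.13), or 2.09-fold.

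Hbb-bs (ENSMUSG00000052305, chr7:103826534-103828096, minus strand) is an adult β-globin gene of the haplotype that C57BL/6 carries. It had log2 levels of 9.05, 9.35 and 9.25 in the control libraries and 10.34, 9.96 and 10.27 in the MA libraries. MA replicate 2 was the lowest of its group, as it was for each of the 4 globin genes, and still lay above every control library. The means were 9.22 ± 0.16 and 10.19 ± 0.20 (SD, n = 3), a difference of 0.97 (limma SE 0.12) or 1.96-fold.

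Hbb-bt (ENSMUSG00000073940, chr7:103812524-103813996, minus strand), the companion of Hbb-bs, had the lowest level of the 4, at 7.65, 7.97 and 7.99 in the control libraries and 9.34, 8.68 and 8.95 in the MA libraries. It also had the widest spread among the MA libraries. The means were 7.87 ± 0.19 and 8.99 ± 0.33 (SD, n = 3), a difference of 1.12 (limma SE 0.17) or 2.18-fold. In the order of mean levels, Hba-a2 and Hbb-bs stood at the top and differed by less than their spread, Hba-a1 came next by more than its SD, and Hbb-bt was lowest, in either group.

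**Figure D1:**
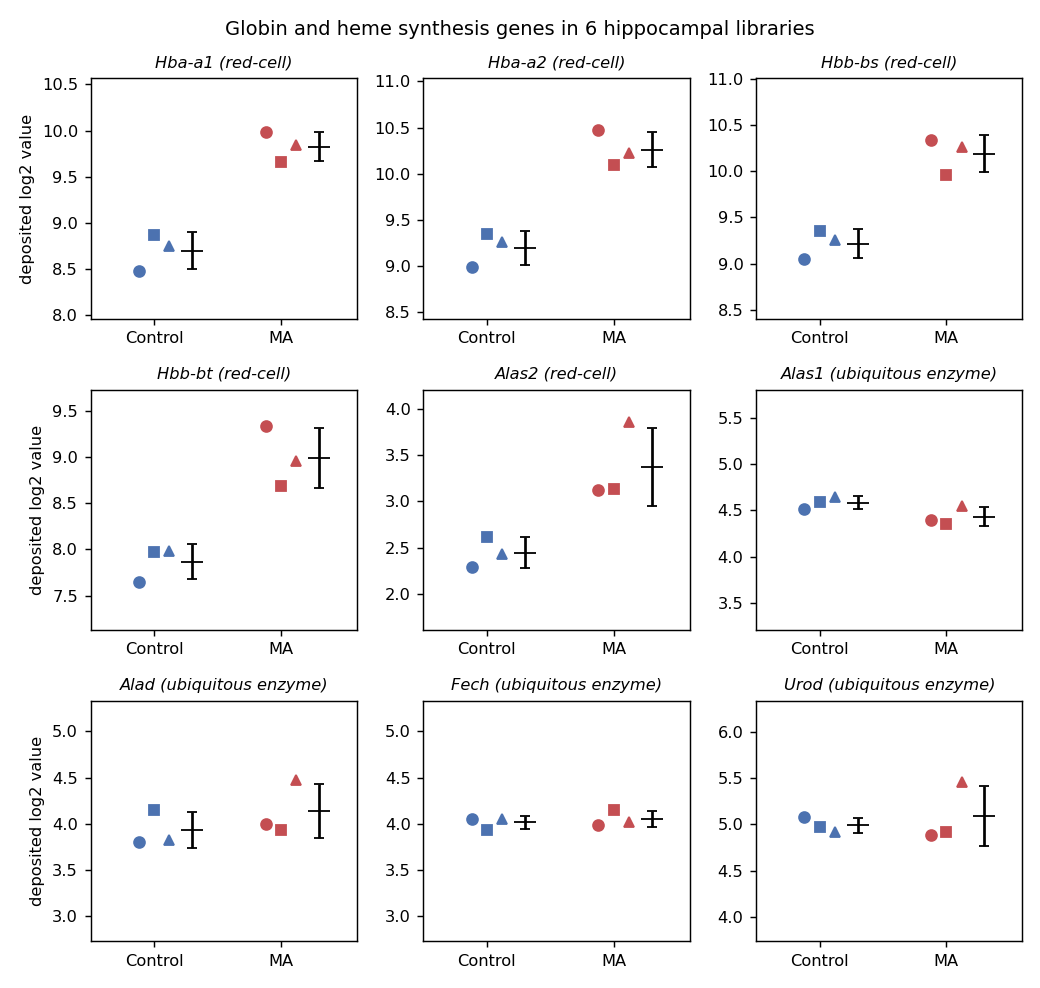
Log2 level (deposited RPKM-like scale) of the 9 genes in each library, 1 panel per gene, with circles, squares and triangles for replicates 1, 2 and 3 and black bars for the mean ± SD (n = 3); every vertical axis spans the same number of log2 units. In the panels of the 4 globin genes and Alas2 the MA points all lie above the control points, whereas in the panels of Alas1, Alad, Fech and Urod the groups overlap.

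The globin transcripts stood among the most abundant of the tissue. Ranked from the highest value down within each library, Hba-a2 was at place 148, 105 and 114 of the 16060 rows in the control libraries and at 32, 47 and 42 in the MA libraries. Hbb-bs moved from places 140, 104 and 116 to places 37, 53 and 40. Hba-a1 stood at 227, 166 and 183 against 52, 71 and 59, and Hbb-bt at 414, 333 and 329 against 106, 192 and 154. On the back-transformed scale the 4 genes summed to 1595, 2019 and 1907 in the control libraries and to 4370, 3311 and 3835 in the MA libraries.

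**Figure D2:**
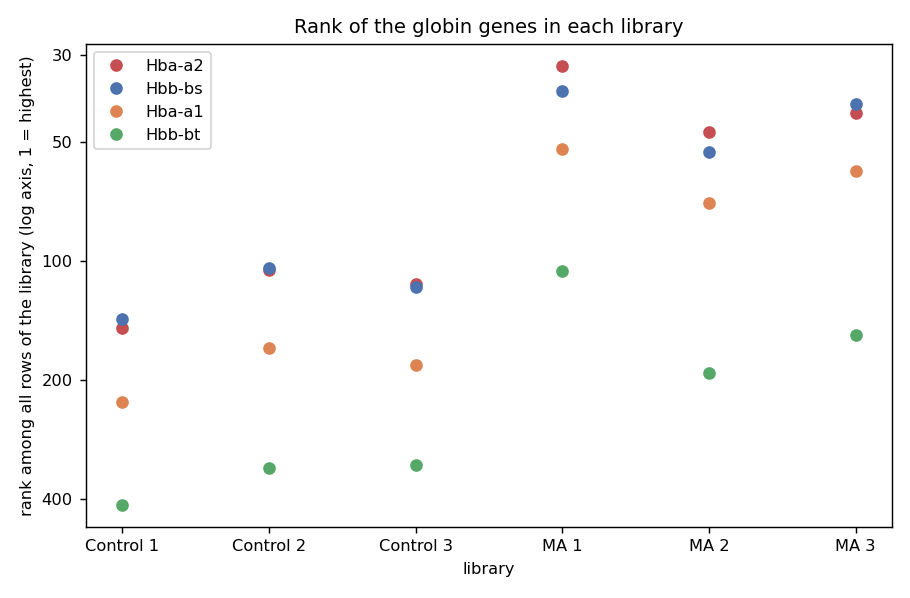
Rank of each globin gene within each library on a logarithmic axis, where 1 is the highest of the 16060 rows. All 4 genes hold higher places in each MA library than in any control library, and the MA places of Hba-a2 run from 32 to 47.

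The copies within each pair are nearly the same sequence, which limits what can be said about any of them alone. Over 429 coding bases Hba-a1 and Hba-a2 differ at 1, and over 444 coding bases Hbb-bs and Hbb-bt differ at 1, an identity of 99.8% in each pair. Of the 50-base stretches of the transcripts in the annotation, 67.5% of those of Hba-a1 and 86.9% of those of Hba-a2 also occur in the other copy, and for Hbb-bs and Hbb-bt the shares are 65.8% and 58.3%. How reads that match both copies were counted is not stated for this table. The split between copies is therefore uncertain, whereas the sum of a pair is less affected. The stretches around the differing base are printed to make the likeness visible, coding bases 351 to 411 for the α pair and 384 to 444 for the β pair, with the differing base in capitals.
Hba-a1: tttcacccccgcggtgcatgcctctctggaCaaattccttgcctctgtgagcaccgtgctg
Hba-a2: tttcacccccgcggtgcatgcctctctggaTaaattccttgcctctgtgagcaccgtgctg
Hbb-bs: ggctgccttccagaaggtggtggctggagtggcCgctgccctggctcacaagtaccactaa
Hbb-bt: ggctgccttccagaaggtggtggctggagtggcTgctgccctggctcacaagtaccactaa

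The split within each pair overlapped between the groups. Hba-a2 exceeded Hba-a1 by 0.51, 0.47 and 0.51 on the log2 scale in the control libraries and by 0.49, 0.43 and 0.38 in the MA libraries. Hbb-bs exceeded Hbb-bt by 1.40, 1.38 and 1.26 in the control libraries and by 1.01, 1.28 and 1.31 in the MA libraries, with MA replicate 1 the lowest. The sum of the α genes exceeded that of the β genes by 0.25, 0.30 and 0.28 in the control libraries and by 0.32, 0.43 and 0.29 in the MA libraries. The α sum differed by 1.09 between the groups and the β sum by 1.02, so the difference was of similar size for either chain.

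Alas2 (ENSMUSG00000025270, chrX:150547375-150570638, plus strand), the erythroid form of the enzyme that starts heme synthesis, was far lower than the globins and was also higher in the MA libraries. Its log2 level was 2.29, 2.62 and 2.43 in the control libraries and 3.13, 3.13 and 3.86 in the MA libraries. The groups did not overlap, but MA replicate 3 stood well above the other MA libraries. The means were 2.44 ± 0.17 and 3.37 ± 0.42 (SD, n = 3). The difference was 0.93 (limma SE 0.21), or 1.91-fold, and 0.69 without MA replicate 3. The log2 values were taken to hold an offset of 1, which lowers the difference of a gene at this level. With pseudocounts of 0.1 and 0.01 in its place, the Alas2 difference was 1.06 and 1.07. The mean of the globins exceeded Alas2 by 6.26, 6.27 and 6.39 in the control libraries and by 6.91, 6.47 and 5.96 in the MA libraries. Within the MA group Alas2 thus did not follow the globins, which were highest in MA replicate 1. Alas2 overlaps Apex2 and Mir3620 on the opposite strand, and whether strand was used in counting is not stated, so reads of these genes may be part of its value.

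Alas1 (ENSMUSG00000032786, chr9:106233455-106248654, minus strand), the form of all tissues, had log2 levels of 4.52, 4.59 and 4.65 in the control libraries and 4.39, 4.35 and 4.55 in the MA libraries. The groups overlapped. The difference was -0.15 (limma SE 0.09) between means of 4.59 ± 0.07 and 4.43 ± 0.10 (SD, n = 3). The gap between the forms, Alas1 minus Alas2, was 2.23, 1.97 and 2.22 in the control libraries and 1.27, 1.22 and 0.68 in the MA libraries. Alas1 remained the higher form in every library. It overlaps 4930500F10Rik on the opposite strand, with the same limit as for Alas2.

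Alad (ENSMUSG00000028393, chr4:62509169-62519918, minus strand), which makes porphobilinogen, was at 3.81, 4.15 and 3.83 in the control libraries and at 4.0, 3.94 and 4.47 in the MA libraries. The groups overlapped, and MA replicate 3 was the highest of all. The difference of 0.21 (limma SE 0.17) was of the size of the spread within the groups, and it was 0.04 without that library.

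Urod (ENSMUSG00000028684, chr4:116989965-116994413, minus strand), which makes coproporphyrinogen, had levels of 5.08, 4.97 and 4.92 in the control libraries and 4.88, 4.92 and 5.46 in the MA libraries. As with Alad, MA replicate 3 stood above the rest. The difference was 0.10 (limma SE 0.16), and -0.09 without that library.

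Fech (ENSMUSG00000024588, chr18:64452914-64490251, minus strand), the enzyme that completes heme, varied least. It was listed at 4.05, 3.94 and 4.05 in the control libraries and at 3.99, 4.15 and 4.01 in the MA libraries. The means of 4.01 ± 0.07 and 4.05 ± 0.08 (SD, n = 3) differed by 0.04 (limma SE 0.09). Of the 4 enzymes, 0 had groups that did not overlap, beside 7.32% of all tested genes with MA above and 10.2% with MA below, so this count says little about them.

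Set against each other, the red-cell genes were higher in MA and the enzymes were nearly level. The mean log2 level of the 5 red-cell genes was 7.29, 7.63 and 7.54 in the control libraries and 8.65, 8.31 and 8.63 in the MA libraries, a difference of 1.04. The mean of the 4 enzymes was 4.36, 4.41 and 4.36 in the control libraries and 4.32, 4.34 and 4.62 in the MA libraries, a difference of 0.05. The red-cell mean exceeded the enzyme mean by 2.93, 3.22 and 3.18 in the control libraries and by 4.33, 3.97 and 4.01 in the MA libraries. The difference of these gaps was 0.996, or 1.99-fold, and it ranged from 0.88 to 1.06 as each library was left out in turn.

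All 5 red-cell genes had every MA library above every control library, which held for 7.32% of the genes tested. In the fit across all genes 3 of the 5 (Hba-a1, Hba-a2 and Hbb-bs) passed the threshold of a Benjamini-Hochberg adjusted p-value under 0.05 (limma), as did 0.165% of all tested genes in that direction, 22 genes. At an unadjusted p-value under 0.05 all 5 passed, as did 4.99% of all tested genes in that direction. Of the 4 enzymes, 0 passed. As this contrast chose the genes, the counts are given as a description. They also depended on the fit. Without control replicate 1, 2 or 3, or without MA replicate 1 or 2, 0 of the 5 passed. Without MA replicate 3 all 5 did, with 1.93% of all genes called. With no filter on low values 0 passed, with 0.0187% of all genes called. With limma's sample quality weights 5 passed, with 4.4% of all genes called. With groups of 3, the smallest p-value that an exact two-sided permutation test of 1 gene can reach is 0.1.

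**Figure D3:**
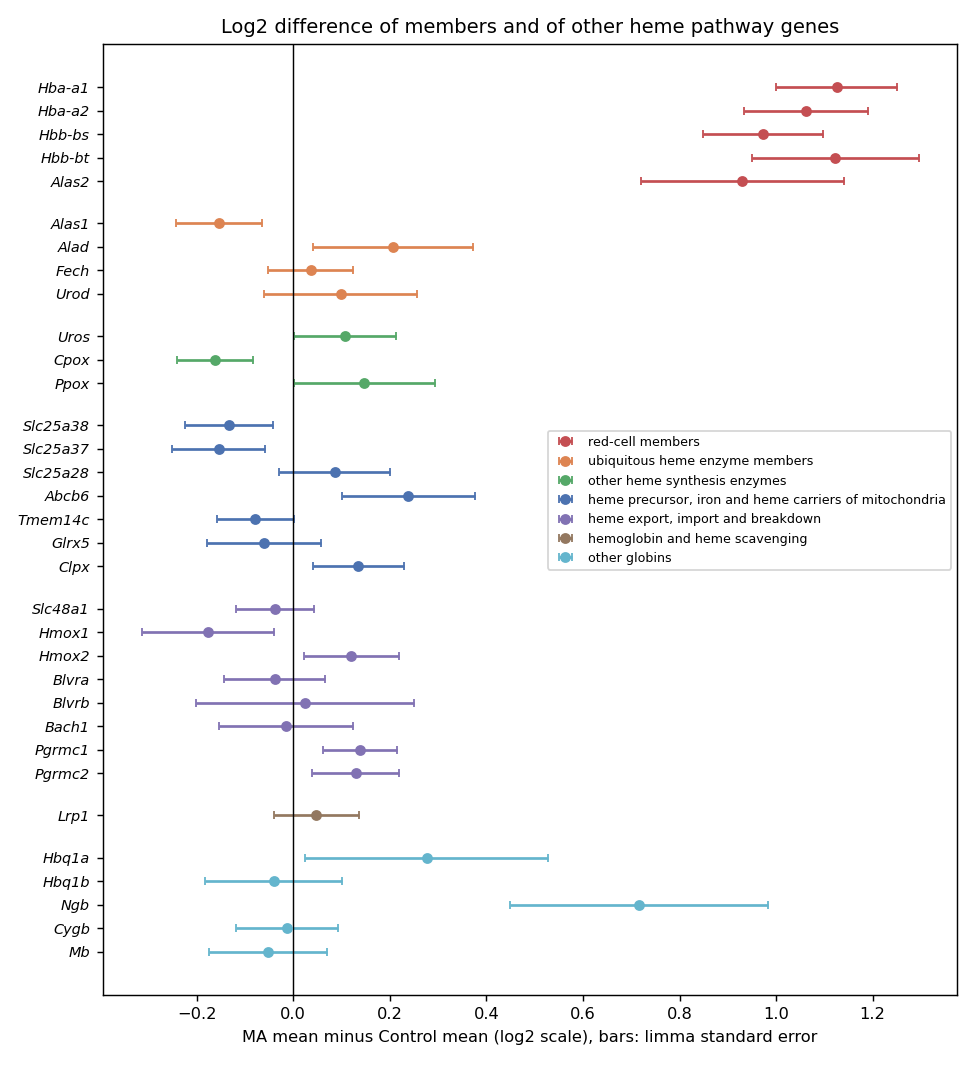
Difference of the group means (MA minus control, log2) with the limma SE for the 9 genes and for 24 other genes of heme, its carriers and the other globins. The 5 red-cell genes lie between 0.93 and 1.13, and the 4 enzymes lie between -0.15 and 0.21.

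The rest of the heme pathway was examined through lists taken from textbook knowledge. Of 38 genes outside the 9, 29 were in the table and 26 passed the filter on low values, and 0 passed the adjusted threshold in either direction, beside 0.263% of all tested genes. At an unadjusted p-value under 0.05 there was 1 gene, Ngb, beside 10.4% of all tested genes. The differences were positive for 12 and negative for 14, with a median of -0.01, as over all tested genes (-0.01). Every MA library lay below every control library for 4 of the 26, among them Cpox, Slc25a38 and Slc25a37, beside 10.2% of all tested genes. Not analysed here are Abcb10, Flvcr1, Flvcr2, Hbb-b1, Hbb-b2, Hbb-bh1, Hbb-bh2, Hbb-y and Hba-x.

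Among the other enzymes of synthesis, Cpox, which oxidizes coproporphyrinogen, had a log2 level of 4.16, 4.13 and 4.08 in the control libraries and 4.01, 3.91 and 3.97 in the MA libraries. The difference was -0.16 (limma adjusted p = 0.546). Uros, which closes the ring of uroporphyrinogen, differed by 0.11 and Ppox, which makes protoporphyrin, by 0.15, and the pair by 0.04 and 0.005 without MA replicate 3. The differences of Uros and Ppox were within 2 SE.

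The carriers of the mitochondrion were likewise near level. Slc25a37, the mitoferrin that brings iron to Fech in erythroid cells, had levels of 2.22, 2.27 and 2.35 in the control libraries and 2.14, 2.06 and 2.17 in the MA libraries, a difference of -0.15 (limma adjusted p = 0.643). Its counterpart of other tissues, Slc25a28, differed by 0.09, and by -0.02 without MA replicate 3. Slc25a38, the glycine carrier, differed by -0.13 and Abcb6, a porphyrin transporter, by 0.24 (limma adjusted p = 0.609), or 0.13 without that library. Glrx5 and Tmem14c, with the highest levels of the list, differed by -0.06 and -0.08, and by -0.19 and -0.11 without it.

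Heme breakdown and scavenging gave no call either. Hmox1, the inducible heme oxygenase, was at 1.93, 1.90 and 1.97 in the control libraries and at 1.52, 2.0 and 1.73 in the MA libraries, so the groups overlapped (limma adjusted p = 0.715). Hmox2, the constitutive form, differed by 0.12. Pgrmc1, a heme-binding membrane protein, differed by 0.14 and Slc48a1, which brings heme out of lysosomes, by -0.04. Lrp1, a receptor of hemopexin, differed by 0.05. Cd163, Hp and Hpx, which clear free hemoglobin and heme, stayed under the filter.

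Of the 5 other globins in the table, 0 passed the adjusted threshold, and whether they differed from the adult globins was not tested. Ngb, the neuroglobin of nerve cells, was at 1.01, 1.18 and 2.02 in the control libraries and at 2.37, 2.07 and 1.91 in the MA libraries. Its groups overlapped, and the difference of 0.72 (limma SE 0.27) had an unadjusted limma p of 0.0301 and an adjusted p of 0.420. With pseudocounts of 0.1 and 0.01 in place of the offset of 1 its difference was 1.03 and 1.07. Cygb, the cytoglobin, differed by -0.01 at a mean level near 5, and Mb, the myoglobin, by -0.05. Hbq1a and Hbq1b, the θ-globin genes, differed by 0.28 and -0.04 at levels below 1.3. The difference of Hbq1a was 0.06 without MA replicate 3, and 0.70 and 0.87 with the smaller pseudocounts.

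Other transcripts of red cells were scarce. Of 22 erythroid markers 16 were in the table, and 12 of these stayed under the filter, with no log2 value over 0.75. Of these 12, 9 were at 0 in at least 1 library. Slc4a1, the band 3 anion exchanger, lay between 0.07 and 0.29. Klf1, a transcription factor of erythroid cells, lay between 0 and 0.32. Nfe2, Tal1, Ermap, Rhd, Car1, Trim10, Tspo2 and Epb42 also stayed under the filter, and Epb42, the protein 4.2 gene, did not exceed 0.042 in any library.

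Of the 4 erythroid markers with higher levels, among which Tfrc and Ank1 are also expressed in the brain, 0 passed the adjusted threshold, beside 0.263% of all tested genes. Bpgm, which makes bisphosphoglycerate, was at 4.97, 4.88 and 4.96 in the control libraries and at 5.09, 5.02 and 5.19 in the MA libraries, a difference of 0.16 (limma adjusted p = 0.555). Tfrc, the transferrin receptor, was at 4.26, 4.19 and 4.0 against 4.36, 4.40 and 4.38, a difference of 0.23 (limma adjusted p = 0.464). Both had every MA library above every control library, as did 7.32% of all tested genes. Ank1, the ankyrin of the red-cell membrane, differed by -0.01 and Epor, the erythropoietin receptor, by -0.24. Summed over the 16 markers, the back-transformed level ran from 55.3 to 58.2 in the control libraries and from 61.1 to 63.9 in the MA libraries, and it was carried mainly by Bpgm and Tfrc.

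Markers of other cells of the blood were low. The summed level of 8 neutrophil markers was between 2.81 and 4.15 in the control libraries and between 1.95 and 10.6 in the MA libraries, with S100a9 and S100a8 at 2.54 and 2.37 in MA replicate 3. For 8 lymphocyte markers, led by Ighm, the sums ran from 6.52 to 10.1 and from 6.45 to 9.14. For 6 platelet markers they ran from 5.03 to 5.70 and from 5.54 to 6.53. Pf4, a platelet chemokine, differed by -0.18 and Itga2b, an integrin of platelets, by 0.56 (limma adjusted p = 0.417), and the pair by -0.05 and 0.34 without MA replicate 3. Of the 9 markers of these lists that passed the filter, 0 passed the adjusted threshold, beside 0.263% of all tested genes, so a count of 0 says little about so short a list.

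Among markers of other cells of the dissected tissue, most of those of the choroid plexus epithelium were higher in the MA libraries. The list was chosen with earlier results of these data known, so its counts and p-values are given as a description. Of 12 markers of the choroid plexus epithelium, 5 were higher in MA at the adjusted threshold, beside 0.165% of all tested genes, and 11 had every MA library above every control library, beside 7.32% of all tested genes. The 5 were Cldn2, a claudin (difference 1.47, limma adjusted p = 0.0244), Clic6, a chloride channel protein (2.0, adjusted p = 0.0315), Slc4a5, a bicarbonate transporter (1.70, adjusted p = 0.0315), Kl, the klotho gene (1.43, adjusted p = 0.0325), and Folr1, a folate receptor (2.10, adjusted p = 0.0456). Ttr, the transthyretin gene, was at 5.87, 7.39 and 8.68 in the control libraries and at 10.77, 11.14 and 12.30 in the MA libraries, a difference of 4.09 (adjusted p = 0.0887). All 5 calls were lost without control replicate 1, 2 or 3 or MA replicate 2. The summed level of the 12 was 70.5, 179 and 426 in the control libraries and 1791, 2326 and 5106 in the MA libraries. It was carried mainly by Ttr, whose level in MA replicate 3 was the highest value that the libraries shared. The part of the choroid plexus in the higher globin level was not tested. The order of the MA libraries differed between the lists. The globins were highest in MA replicate 1 and lowest in MA replicate 2. The choroid plexus sum was highest in MA replicate 3 and lowest in MA replicate 1. As in the sum, Ttr, Kcne2, Kcnj13, Otx2, Sostdc1, Cldn2 and Slc4a5 were highest in MA replicate 3 and lowest in MA replicate 1. Folr1, Kl, Clic6 and Tmem72 were highest in MA replicate 2, and Prlr in MA replicate 1.

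The 12 endothelial markers summed to 193, 217 and 214 in the control libraries and to 266, 232 and 205 in the MA libraries, so the groups overlapped, and 0 passed the adjusted threshold, beside 0.263% of all tested genes. Their median difference was 0.07. Cldn5, a claudin of tight junctions, differed by 0.30 (limma adjusted p = 0.241), Ly6c1 by 0.04, Itm2a by 0.07 and Slco1a4, a transporter of the blood-brain barrier, by 0.77 (adjusted p = 0.413), the last pair by 0.24 and 1.10 without MA replicate 3. The sum was highest in MA replicate 1, as for the globins. It was lowest in MA replicate 3, whereas the globins were lowest in MA replicate 2. All 10 listed markers of excitatory neurons of the hippocampus were detected. They summed to between 3259 and 3477 in the control libraries and between 3078 and 3417 in the MA libraries. This sum was carried mainly by Nrgn, Camk2a and Slc17a7, and it does not set the hippocampus apart from other brain regions. Nrgn, Camk2a and Slc17a7 had the highest levels of that list and differed by -0.12, 0.06 and 0.06, and Camk2a by 0.31 without MA replicate 3. Over the 10 markers the median difference was -0.13, 8 were lower in MA and 0 passed the adjusted threshold, while 2 had an unadjusted p-value under 0.05 and every MA library below every control library, as did 10.2% of all tested genes in the latter. These were Neurod6 (-0.43, limma adjusted p = 0.290) and Wfs1 (-0.30, adjusted p = 0.413).

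**Figure D4:**
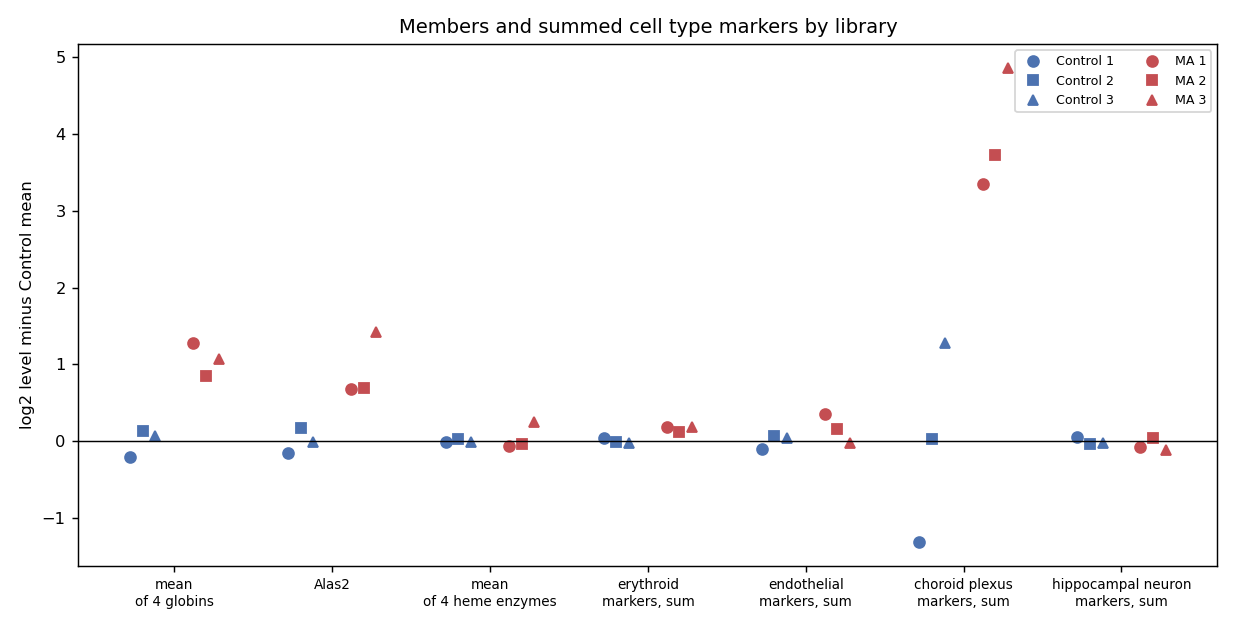
Log2 level of each library minus the mean of the control libraries, for the globin mean, Alas2, the mean of the 4 enzymes and the log2 of the summed marker lists. The globin mean, Alas2, the erythroid sum and the choroid plexus sum lie above every control library in all 3 MA libraries. The enzyme mean and the endothelial and neuron sums overlap between the groups.

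The genes whose values over the 6 libraries lay closest to the mean of the globins were found by the root mean square (RMS) difference of the centred log2 values, where the globin pattern itself had an RMS of 0.559. The 4 globins lay at 0.0276 to 0.0763 from their mean, and Alas2 at 0.286. The nearest other genes were Crb3, a polarity protein of epithelia, at 0.0944, and Cpne2, a copine, at 0.136. Crb3 was at 0.25, 0.80 and 0.56 in the control libraries and at 1.93, 1.47 and 1.8 in the MA libraries, so its level was far below that of the globins. Then came Htr2c, a serotonin receptor, at 0.179, Cldn1, a claudin, at 0.188, Col6a1, a collagen, at 0.194, Acacb, an acetyl-CoA carboxylase, at 0.195, and Kcnt1, a potassium channel, and Gli1, a factor of hedgehog signaling, at 0.216. On this scale all of these are nearer to the globin mean than Alas2 was. The offset narrows the differences of low genes, such as Crb3, Cldn1 and Alas2, so their distances depend on it. Distances with the smaller pseudocounts were not computed.

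With the values centred within each group, so that the difference between the groups no longer counted, the globin pattern had an RMS of 0.162. The globins lay at 0.0272 to 0.0717 from their mean, and Alas2 at 0.278. The nearest other genes were then Ang, a secreted ribonuclease, at 0.0286, Grb7 at 0.0351, Cep70 at 0.0355 and Adamtsl1 at 0.0366. None of these 4 is among the 8 above, and their differences between MA and control lay between -0.12 and 0.08. With 6 libraries these distances describe the table and carry no test.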

How the data were processed

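RNA of the hippocampus was sequenced from 3 control and 3 MA samples. The methods name Hisat2 for the alignment of the paired-end reads, featureCounts for counting and FPKM as the unit, while the labels list Bowtie 0.12.2 with mm8 and mm9 and give them no role. The authors deposited 1 table named as RPKM, in which the values are logarithms and were taken to be log2 with an offset of 1; the transform and the scaling between libraries are not described. All 6 columns were matched to samples by name. Read totals are not given, so the depth is unknown and no interval from counts is printed.

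The deposited values were fitted with limma 3.58.1 in R 4.3.3 (lmFit, eBayes with trend) over 13321 of the 16060 rows, those that reached a back-transformed 0.5 in 3 or more libraries, MA against control, with Benjamini-Hochberg adjustment over all rows tested. A difference is the MA mean minus the control mean, and it understates the change of low genes because of the offset. The test was tried on simulated data first. The 6 libraries were treated as independent. Alternatives were pseudocounts of 0.1 and 0.01, no filter, a minimum mean of 5, quantile normalization, median centring, no trend in eBayes, sample quality weights, the replicate number as a block, the copies of each globin pair summed, Alas2 left out, and each library left out in turn.

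The members and lists were chosen with earlier results of these data known. Named genes are the 9 members, every other listed gene past the threshold, the 3 genes of highest mean in each list, the erythroid markers and other globins in the table (some listed genes are counted but not reported here by name), and the 8 and 4 genes nearest to the globin mean; other listed genes named in the text were added after their values were seen. Gene coordinates come from GENCODE on GRCm38 and promoter windows from RefSeq GRCm38.p6, for location only, since the build used for the table is unclear; windows were found for 8 of the 9 members, 10 in all, and that of Fech is not shown. Behavioral, histological and cell culture experiments were not analysed here.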

Additional observations from a re-analysis of the deposited data

How the results depend on the processing

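The number of genes called across the table, 35, depended on the settings. It was 3 with no filter, 20 with a minimum mean of 5, 586 with sample quality weights and between 0 and 257 with each library left out, the highest without MA replicate 3 and 0 without control replicate 2, control replicate 3 or MA replicate 2. It was 3 without control replicate 1 and 15 without MA replicate 1. The mean differences held their size: over the settings with a value, the red-cell genes lay between 0.90 and 1.15, and the red-cell genes minus the enzymes between 0.88 and 1.06. With the copies of each pair summed, the red-cell mean difference was 1.01, and without Alas2 it was 1.07. The enzyme mean ran from -0.05 to 0.10. Of the 5 red-cell genes, 3 were called with either pseudocount, a minimum mean of 5, median centring and quantile normalization, and 2 without the trend. Median centring and quantile normalization could change little, since the deposited libraries already shared their highest value, recurring exact values and near-equal medians. Counts of called pathway genes and erythroid markers stayed at 0 in every setting run. The calls of the 5 choroid plexus markers were lost 31 times over the settings, 5 of them with no filter, and other markers of that list gained a call 14 times. Slco1a4 passed with sample quality weights (limma adjusted p = 0.0247) and without MA replicate 3 (adjusted p = 0.0298), and no gene named outside the members turned direction at a called value. The causes were not tested. Unknown depth limits what can be said of the genes listed near 0.

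The replicate numbers were used as a block only here, since no source says that same-numbered samples were paired. Once the group means were taken out, libraries with the same number had correlations across genes of -0.20, -0.24 and -0.34. With 3 libraries per group these values cannot settle whether the numbers mark a shared batch or pairing. With the replicate block 15 genes were called and 0 of the 5 red-cell genes. Folr1, Kl and Slc4a5 were then no longer called. Ttr (limma adjusted p = 0.0227) and Kcne2, another choroid plexus marker (limma adjusted p = 0.0441), gained a call.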
